A study of Mus musculus with 12 samples.

Results

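The 10 chemokine genes described here, Cxcl1, Cxcl2, Cxcl3, Cxcl5, Cxcl15, Cxcl16, Cxcl17, Ccl2, Ccl20 and Cx3cl1, are those that lung epithelium can use to call neutrophils, dendritic cells, monocytes and lymphocytes. They were chosen by symbol from the 55450 genes counted, and all 10 were found and passed the filter on low counts. Messenger RNA was sequenced from type II alveolar epithelial (AT2) cells of mice on a C57BL/6 background. All animals carried a floxed aryl hydrocarbon receptor (AhR) gene: AhRfl/fl mice served as controls, and Sftpc-Cre;AhRfl/fl mice also carried Cre recombinase driven by the promoter of the surfactant gene Sftpc, which removes part of AhR in cells that use this promoter. After isolation by negative selection the cells were plated on collagen I and given either PBS or an extract of cockroach (CRE, a mixture of allergens) at 50 µg/ml over 24 h. This gave 4 groups of 3 libraries each: AhRfl/fl with PBS, AhRfl/fl with CRE, Sftpc-Cre;AhRfl/fl with PBS and Sftpc-Cre;AhRfl/fl with CRE. The methods give 1 age range, in weeks, for all mice and controls matched for age and sex. Whether each library came from its own mouse is not stated, so p-values measure the spread between these libraries, which may be technical.

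Chemokines are small secreted proteins that bind receptors on leukocytes and set the direction in which these cells move. Cxcl1, Cxcl2, Cxcl3 and Cxcl5 bind CXCR2 on neutrophils, Ccl20 binds CCR6 on immature dendritic cells and some lymphocytes, and Ccl2 binds CCR2 on monocytes. In airway and alveolar epithelium many of these genes are switched on by NF-kappaB after contact with microbes, proteases or interleukins, whereas others, such as the lung chemokine Cxcl15, are made without such a signal.

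Of the 10 genes, 5 lie in 1 cluster on the plus strand of mouse chromosome 5 (GRCm38, GENCODE M21), within 147 kb, in the order Cxcl5 (chr5:90759360-90761624), Cxcl3 (chr5:90786103-90789600), Cxcl15 (chr5:90794534-90803067), Cxcl1 (chr5:90891241-90893115) and Cxcl2 (chr5:90903871-90905938). Ccl20 lies at chr1:83116766-83119167, Cxcl17 at chr7:25400053-25412886 on the minus strand, Cx3cl1 at chr8:94772009-94782427, Cxcl16 at chr11:70453983-70459984 on the minus strand and Ccl2 at chr11:82035571-82037453. Exons of Cxcl16 overlap those of Zmynd15 on the other strand over 552 bases, and whether the counting used strand is not stated, so a part of the Cxcl16 count could belong to Zmynd15. Similar sequence was the other source of doubt in the counts: Cxcl2 shares 7.59% of its 31-base words with Cxcl3, and Cxcl3 shares 4.56% of its words with Cxcl2, while Cxcl1 shares none with any other transcript.

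RefSeq promoter sequence (GRCm38.p6) was at hand for 6 of the 10 genes: Ccl20, Cxcl1, Cxcl2, Cxcl3, Cxcl15 and Cx3cl1. The 150 bases just before the start are shown for 4 genes that responded to CRE and for Cxcl15, which lies between them on chromosome 5 and did not pass the test. Capitals mark GGGAATTTCC, the NF-kappaB motif as read in the Cxcl1 promoter, or, where it is missing, another match to the NF-kappaB consensus on either strand.
Cxcl1, chr5:90891091-90891240, plus strand: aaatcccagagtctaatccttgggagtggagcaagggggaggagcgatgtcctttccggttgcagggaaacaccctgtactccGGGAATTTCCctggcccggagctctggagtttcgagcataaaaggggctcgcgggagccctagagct
Cxcl2, chr5:90903721-90903870, plus strand: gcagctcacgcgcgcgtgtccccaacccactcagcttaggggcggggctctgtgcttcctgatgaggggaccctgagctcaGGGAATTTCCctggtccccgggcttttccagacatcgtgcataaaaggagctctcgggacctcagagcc
Cxcl3, chr5:90785951-90786100, plus strand: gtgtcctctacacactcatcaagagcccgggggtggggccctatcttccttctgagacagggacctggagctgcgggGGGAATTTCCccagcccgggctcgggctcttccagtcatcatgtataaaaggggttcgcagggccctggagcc
Ccl20, chr1:83116616-83116765, plus strand: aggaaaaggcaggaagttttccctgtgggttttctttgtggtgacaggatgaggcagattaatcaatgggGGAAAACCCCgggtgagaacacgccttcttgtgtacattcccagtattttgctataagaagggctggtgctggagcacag
Cxcl15, chr5:90794384-90794533, plus strand: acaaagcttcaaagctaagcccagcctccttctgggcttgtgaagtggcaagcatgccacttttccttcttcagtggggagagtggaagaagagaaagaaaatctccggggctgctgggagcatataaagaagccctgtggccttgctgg
Both strands of the 300-base windows around the starts were searched. GGGAATTTCC was read from Cxcl1, so its match there was given. It was also found in Cxcl2 and Cxcl3, and in 29 of 32817 promoters in all (0.0884%). The wider NF-kappaB consensus, which includes that sequence, had a match in Cxcl1, Cxcl2, Cxcl3 and Ccl20 and in 4.5% of all promoters, and neither Cxcl15 nor Cx3cl1 had one. The letters GCGTG, the core bound by AhR with its partner ARNT, were found in Cxcl2 and Ccl20, in 32.4% of all promoters, and not in Cxcl1, Cxcl3, Cxcl15 or Cx3cl1. These matches describe the windows only.

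The libraries held 68878065 to 80935797 counts. Whole-gene counts of Ahr do not show the deleted exon and did not separate the genotypes. Its target gene Cyp1b1 was lower in every Sftpc-Cre;AhRfl/fl library (31.7 to 63.9 CPM, that is counts scaled to library size) than in any AhRfl/fl library (344 to 465 CPM). The 12 AT2 markers summed to 10981 to 14038 CPM in AhRfl/fl cells and to 7529 to 14447 CPM in Sftpc-Cre;AhRfl/fl cells. Markers of other cells were also present: 7 club cell markers, led by Scgb1a1, summed to 4166 to 7835 CPM in AhRfl/fl and 4514 to 8317 CPM in Sftpc-Cre;AhRfl/fl cells, and 10 leukocyte markers, despite a depletion of CD45-positive cells, summed to 65.2 to 543 and 117 to 409 CPM. In each group replicate 1 held the most leukocyte marker RNA. In these bulk libraries fewer cells of a type and less RNA per cell cannot be told apart.

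The levels of the 10 genes per transcript length (deposited FPKM) spanned more than 2 orders of magnitude in cells with PBS. Cxcl15, a neutrophil chemoattractant made in lung, was the highest at 123 ± 11.3 FPKM (SD, n = 3) in AhRfl/fl cells with PBS, followed by Cxcl16 at 72.6 ± 11 FPKM and Cxcl17 at 28.0 ± 4.68 FPKM. The library ranges of these 3 genes did not overlap there. Ccl2 (8.26 ± 7.80 FPKM), Cx3cl1 (5.71 ± 0.334), Cxcl5 (3.26 ± 1.16), Cxcl1 (2.52 ± 1.53), Cxcl3 (1.79 ± 1.67) and Cxcl2 (1.69 ± 1.10) followed, and Ccl20 was last at 0.887 ± 0.407 FPKM. Among these 7 genes library ranges overlapped between all neighbours in the order other than Cx3cl1 and Cxcl5. With CRE the order of the top pair was the same, whereas Cxcl5 moved from rank 6 to rank 3 at 31.8 ± 7.25 FPKM, where its range overlapped with that of Cxcl17. Cx3cl1 moved from rank 5 to rank 10, with libraries at 5.69, 1.22 and 7.13 FPKM. Its range spanned that of Ccl20 at rank 9, so this place rested on 1 low library. In Sftpc-Cre;AhRfl/fl cells Cxcl15, Cxcl16 and Cxcl17 were also the 3 highest with PBS (99.2 ± 39.8, 72.3 ± 1.38 and 33.8 ± 9.13 FPKM), and although their ranges did not overlap with PBS, Cxcl15 and Cxcl16 did overlap with CRE. The 4 CXCR2 ligands Cxcl1, Cxcl2, Cxcl3 and Cxcl5 together made up 3.69% ± 1.85 of the summed FPKM of the 10 genes in AhRfl/fl cells with PBS and 23.8% ± 0.350 with CRE. The same share was 2.84% ± 0.961 and 21.3% ± 2.33 in Sftpc-Cre;AhRfl/fl cells.

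**Figure D1:**
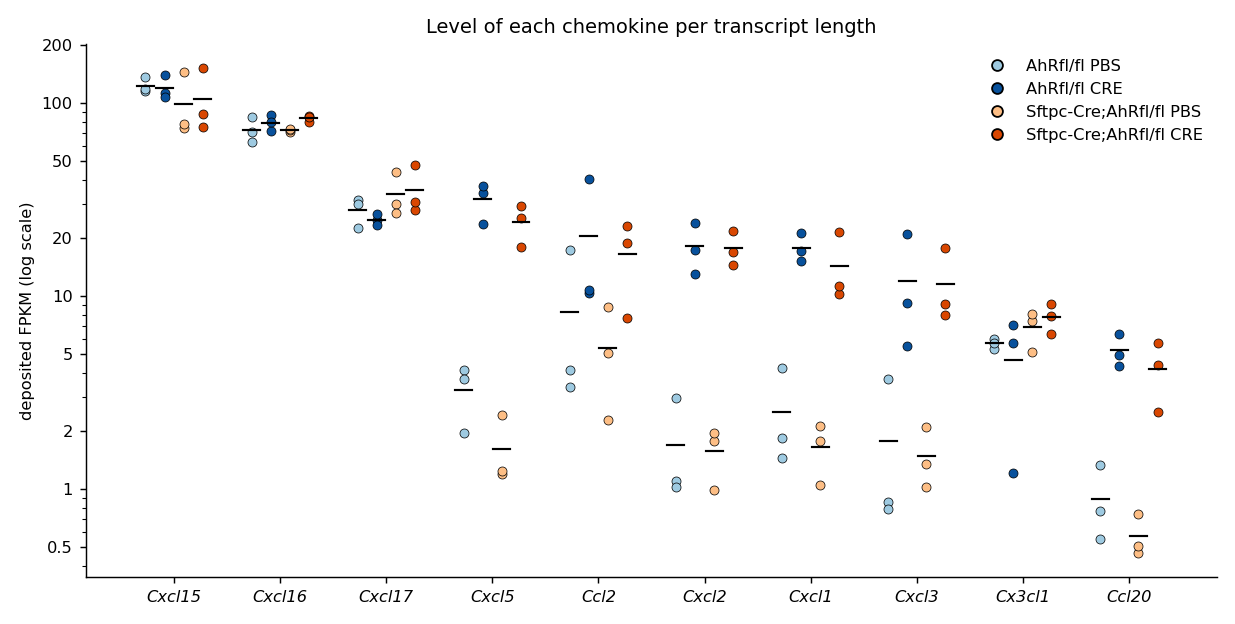
Deposited FPKM (log axis) of each chemokine in each library, by group, with bars at the group means; genes are ordered by their mean over all 12 libraries. Cxcl15, Cxcl16 and Cxcl17 sit high in all 4 groups, and the CRE libraries of Cxcl5, Cxcl2, Cxcl1, Cxcl3 and Ccl20 sit above the PBS libraries of the same genotype.

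Whether CRE changes the chemokines of AT2 cells was asked by comparing CRE with PBS within each genotype. Cxcl1, Cxcl2, Cxcl5 and Ccl20 rose with CRE in both genotypes, by 5.83-fold to 15.1-fold. A gene was called where its p from edgeR's quasi-likelihood test, adjusted by Benjamini-Hochberg over all genes tested, was below 0.05. Of the 10 genes 4 were called higher in AhRfl/fl cells, beside 0.218% of 20612 genes (45 genes). The same 4 of 10 were called higher in Sftpc-Cre;AhRfl/fl cells, beside 0.228% (47 genes), and no member was called lower in either genotype, beside 0.0146% and 0.034%. Averaged over both genotypes Cxcl3 was also called, making 5 of 10 beside 0.864% of all genes, and none was lower (0.233%). The median log2 fold change of the 10 genes was 1.93 in AhRfl/fl and 2.26 in Sftpc-Cre;AhRfl/fl cells, beside -0.0012 and -0.0027 over all genes.

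**Figure D2:**
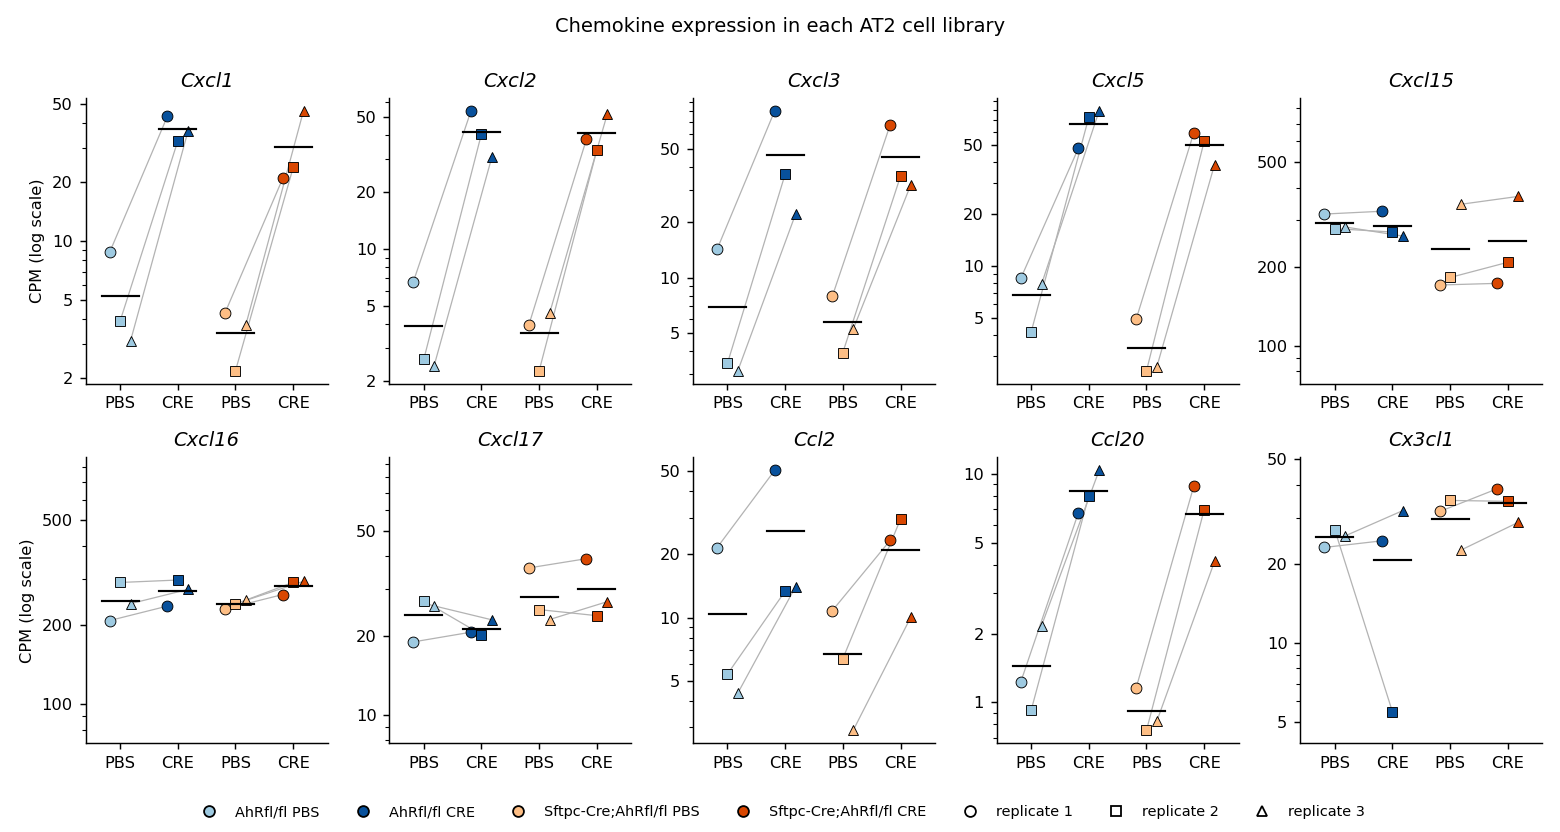
CPM (log axis) of the 10 chemokines in all 12 libraries; blue points are AhRfl/fl and orange points Sftpc-Cre;AhRfl/fl cells (pale PBS, dark CRE), symbols give the replicate number, grey lines join libraries of the same number and black bars are group means. Cxcl1, Cxcl2, Cxcl3, Cxcl5, Ccl2 and Ccl20 are higher with CRE in 6 of 6 same-numbered pairs. So is Cxcl16, by ratios of 1.02 to 1.21. The single low point of Cx3cl1 is replicate 2 of AhRfl/fl cells with CRE.

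Cxcl5, a CXCR2 ligand known as LIX, gave the largest response of the 10 genes in Sftpc-Cre;AhRfl/fl cells. Its libraries held 8.46, 4.13 and 7.82 CPM in AhRfl/fl cells with PBS and 48.0, 72.5 and 79.2 CPM with CRE. Those of Sftpc-Cre;AhRfl/fl cells held 4.90, 2.47 and 2.60 CPM with PBS and 59.0, 52.7 and 38.6 CPM with CRE. Every CRE library was therefore above every PBS library, and the same-numbered ratios lay between 5.68 and 21.3. The rise was 9.78-fold in AhRfl/fl cells (log2 3.29, SE 0.36, edgeR adjusted p = 0.00426) and 15.1-fold (log2 3.91, SE 0.37, edgeR adjusted p = 0.00225) in Sftpc-Cre;AhRfl/fl cells. It was the 1 member that was called in both genotypes under every alternative tried.

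Cxcl2, also known as MIP-2, held 6.74, 2.62 and 2.42 CPM in AhRfl/fl cells with PBS and 54.0, 40.8 and 30.7 CPM with CRE. The Sftpc-Cre;AhRfl/fl libraries held 3.96, 2.27 and 4.57 CPM with PBS and 38.2, 33.4 and 51.7 CPM with CRE. All 6 CRE libraries were above all 6 PBS libraries. The change was 10.6-fold in AhRfl/fl cells (log2 3.41, SE 0.44, edgeR adjusted p = 0.0109) and 11.4-fold in Sftpc-Cre;AhRfl/fl cells (log2 3.51, SE 0.44, edgeR adjusted p = 0.00826). Without PBS replicate 2 or 3 of AhRfl/fl cells the adjusted p was 0.0645 and 0.0603, and without PBS replicate 2 of Sftpc-Cre;AhRfl/fl cells it was 0.05. Without PBS replicate 1 of AhRfl/fl cells, the highest of its group, the log2 change was 4.05.

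Cxcl1, also known as KC, held 8.80, 3.92 and 3.10 CPM in AhRfl/fl cells with PBS and 43.3, 32.4 and 36.6 CPM with CRE. Its Sftpc-Cre;AhRfl/fl libraries held 4.33, 2.19 and 3.76 CPM with PBS and 20.9, 23.8 and 46.2 CPM with CRE. The groups did not overlap in either genotype, and replicate 3 of Sftpc-Cre;AhRfl/fl cells with CRE was about as high as the highest AhRfl/fl library. The rise was 7.09-fold in AhRfl/fl cells (log2 2.83, SE 0.44, edgeR adjusted p = 0.0311) and 8.85-fold in Sftpc-Cre;AhRfl/fl cells (log2 3.15, SE 0.45, edgeR adjusted p = 0.0186). The call in AhRfl/fl cells was lost when PBS replicate 2 or 3 (adjusted p = 0.163 and 0.136) or any 1 of the CRE replicates (0.0730, 0.0984 and 0.102) was left out, while leaving out PBS replicate 1 gave a log2 change of 3.41. The call in Sftpc-Cre;AhRfl/fl cells was lost when any 1 of the PBS replicates (0.0566, 0.0970 and 0.0880) or CRE replicate 3 (0.0621) was left out.

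Cxcl3, the CXCR2 ligand next to Cxcl15 on chromosome 5, had changes of like size with a wider spread. It held 14.3, 3.43 and 3.13 CPM in AhRfl/fl cells with PBS and 80.5, 36.4 and 22.1 CPM with CRE. The Sftpc-Cre;AhRfl/fl libraries held 7.97, 3.93 and 5.26 CPM with PBS and 67.4, 35.5 and 32.0 CPM with CRE. Groups did not overlap, and replicate 1 was the highest library of each of the 4 groups. The log2 change was 2.74 (SE 0.67, edgeR adjusted p = 0.188) in AhRfl/fl and 2.97 (SE 0.68, edgeR adjusted p = 0.175) in Sftpc-Cre;AhRfl/fl cells, neither called, and 2.86 (SE 0.48, edgeR adjusted p = 0.0174) on average. DESeq2, in contrast, called Cxcl3 in both genotypes, and with it 5 of the 10 genes in each. Of all 20612 genes it called 246 higher in AhRfl/fl and 182 higher in Sftpc-Cre;AhRfl/fl cells. CRE and PBS libraries of 1 genotype deviated together by number, and with that pairing as a block within genotype Cxcl3 rose in both genotypes: log2 2.90 (SE 0.19, adjusted p = 0.00173) and 2.95 (SE 0.19, adjusted p = 0.00192). The averaged call was lost without PBS replicate 2 of AhRfl/fl cells (adjusted p = 0.0507) or without PBS replicate 2 or 3 of Sftpc-Cre;AhRfl/fl cells (0.0590 and 0.0530), and leaving out replicate 1 of AhRfl/fl cells gave a log2 change of 3.82 (PBS library) or 2.08 (CRE library). Counted together, so that reads shared between the paralogs do not matter, Cxcl1, Cxcl2 and Cxcl3 rose by 2.96 (SE 0.48, edgeR adjusted p = 0.0393) and 3.19 (SE 0.49, edgeR adjusted p = 0.0262) on the log2 scale.

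Ccl20, the ligand of CCR6 and a chemokine for dendritic cells, rose from the lowest level. Its counts were 62 to 168 per library with PBS and 544 to 774 with CRE in AhRfl/fl cells, that is 1.23, 0.921 and 2.16 CPM against 6.77, 8.04 and 10.4 CPM. Its Sftpc-Cre;AhRfl/fl libraries held 1.15, 0.754 and 0.828 CPM with PBS and 8.85, 6.98 and 4.14 CPM with CRE. All CRE libraries were above all PBS libraries, and replicate 3 was the highest CRE library of AhRfl/fl cells and the lowest of Sftpc-Cre;AhRfl/fl cells. The change was 5.83-fold (log2 2.54, SE 0.38, edgeR adjusted p = 0.0251) and 7.29-fold (log2 2.87, SE 0.39, edgeR adjusted p = 0.0127). The AhRfl/fl call was lost without PBS replicate 1 or 2 (adjusted p = 0.0956 and 0.115) or CRE replicate 2 or 3 (0.0984 and 0.102), and the Sftpc-Cre;AhRfl/fl call without PBS replicate 2 or 3 (0.0917 and 0.0814) or CRE replicate 2 (0.0537).

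Ccl2, the monocyte chemokine also called MCP-1, did not pass the test without pairing. The AhRfl/fl libraries held 21.5, 5.38 and 4.37 CPM with PBS and 50.4, 13.4 and 14.0 CPM with CRE, and the Sftpc-Cre;AhRfl/fl libraries 10.8, 6.37 and 2.90 CPM with PBS and 23.3, 29.4 and 10.1 CPM with CRE. PBS and CRE libraries overlapped in both genotypes, yet each CRE library was above the PBS library of its own number, by ratios of 2.16 to 4.62. The log2 change was 1.31 (SE 0.76, edgeR adjusted p = 0.645) in AhRfl/fl and 1.64 (SE 0.76, edgeR adjusted p = 0.795) in Sftpc-Cre;AhRfl/fl cells. With the replicate number as a block within genotype Ccl2 rose by 1.40 (SE 0.20, adjusted p = 0.0193) and 1.70 (SE 0.21, adjusted p = 0.0119). Without replicate 1 the unpaired value in AhRfl/fl cells was 2.41 (PBS library left out) or 0.39 (CRE library left out).

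Under this pairing 6 of the 10 genes rose in AhRfl/fl cells, beside 1.87% of all genes, and 6 of 10 in Sftpc-Cre;AhRfl/fl cells, beside 1.33%: Cxcl1, Cxcl2, Cxcl3, Cxcl5, Ccl2 and Ccl20 in both. Averaged over genotypes 7 rose, with Cxcl16 added, beside 3.47%. By the rule of the study (limma-trend, unadjusted p below 0.05 and an absolute log2 change above 0.5) 5 members passed upward in AhRfl/fl cells, beside 2.4% of all genes, and 6 in Sftpc-Cre;AhRfl/fl cells, beside 1.84%, Ccl2 being the one added, and none passed downward (1.71% and 1.53%). The averaged response passed for the same 6, beside 2.34% higher and 1.68% lower. Libraries of CRE lay above all libraries of PBS for 5 members in AhRfl/fl cells (8.82% of all genes) and for 6 in Sftpc-Cre;AhRfl/fl cells (6.49%), Cxcl16 being the one added, and below them for none (7.66% and 5.35%). Each of these genes reached p = 0.1, the smallest that an exact two-sided permutation of 3 against 3 libraries can give.

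The other 4 genes did not pass the unpaired test in either genotype. Cxcl16, a membrane-bound chemokine for CXCR6-bearing lymphocytes, held 208, 290 and 241 CPM with PBS and 236, 297 and 273 CPM with CRE in AhRfl/fl cells. Its Sftpc-Cre;AhRfl/fl libraries held 230, 240 and 248 CPM with PBS and 261, 291 and 293 CPM with CRE. Each CRE library was above its PBS partner by a ratio of 1.02 to 1.21. The averaged log2 change was 0.18 (SE 0.08, edgeR adjusted p = 0.473), with a 95% interval of -0.01 to 0.37, and 0.18 (SE 0.03, edgeR adjusted p = 0.0187) with pairing.

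Cxcl15 held 317, 279 and 283 CPM with PBS and 325, 271 and 261 CPM with CRE in AhRfl/fl cells. The Sftpc-Cre;AhRfl/fl libraries held 170, 182 and 345 CPM with PBS and 173, 208 and 370 CPM with CRE. Replicates 1 and 2 of Sftpc-Cre;AhRfl/fl cells were low and replicate 3 high under both treatments. The log2 change was -0.04 (SE 0.30, edgeR adjusted p = 0.999) and 0.11 (SE 0.30, edgeR adjusted p = 1.0), with 95% intervals of -0.71 to 0.63 and -0.56 to 0.78. Both intervals lie below those of Cxcl1, Cxcl2, Cxcl3 and Cxcl5, which share its cluster on chromosome 5.

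Cxcl17, a mucosal chemokine for monocytes and dendritic cells, held 18.9, 27.1 and 25.9 CPM with PBS and 20.6, 20.2 and 23.0 CPM with CRE in AhRfl/fl cells. Sftpc-Cre;AhRfl/fl libraries held 36.2, 25.1 and 23.0 CPM with PBS and 39.2, 23.8 and 26.9 CPM with CRE. The treatments overlapped in both genotypes, with log2 changes of -0.17 (95% interval -0.66 to 0.31) and 0.09 (-0.39 to 0.58). Cx3cl1, or fractalkine, a membrane-bound chemokine for CX3CR1-bearing monocytes and lymphocytes, held 23.1, 26.9 and 25.5 CPM with PBS and 24.5, 5.47 and 31.9 CPM with CRE in AhRfl/fl cells. Its Sftpc-Cre;AhRfl/fl libraries held 31.6, 34.8 and 22.5 CPM with PBS and 38.6, 34.6 and 28.8 CPM with CRE. Replicate 2 of AhRfl/fl cells with CRE stood apart, with a count of 408 where the other two had 1966 and 2376. The log2 changes were -0.29 (95% interval -1.30 to 0.72) and 0.20 (-0.82 to 1.21), and the first was 0.16 without that library.

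**Figure D3:**
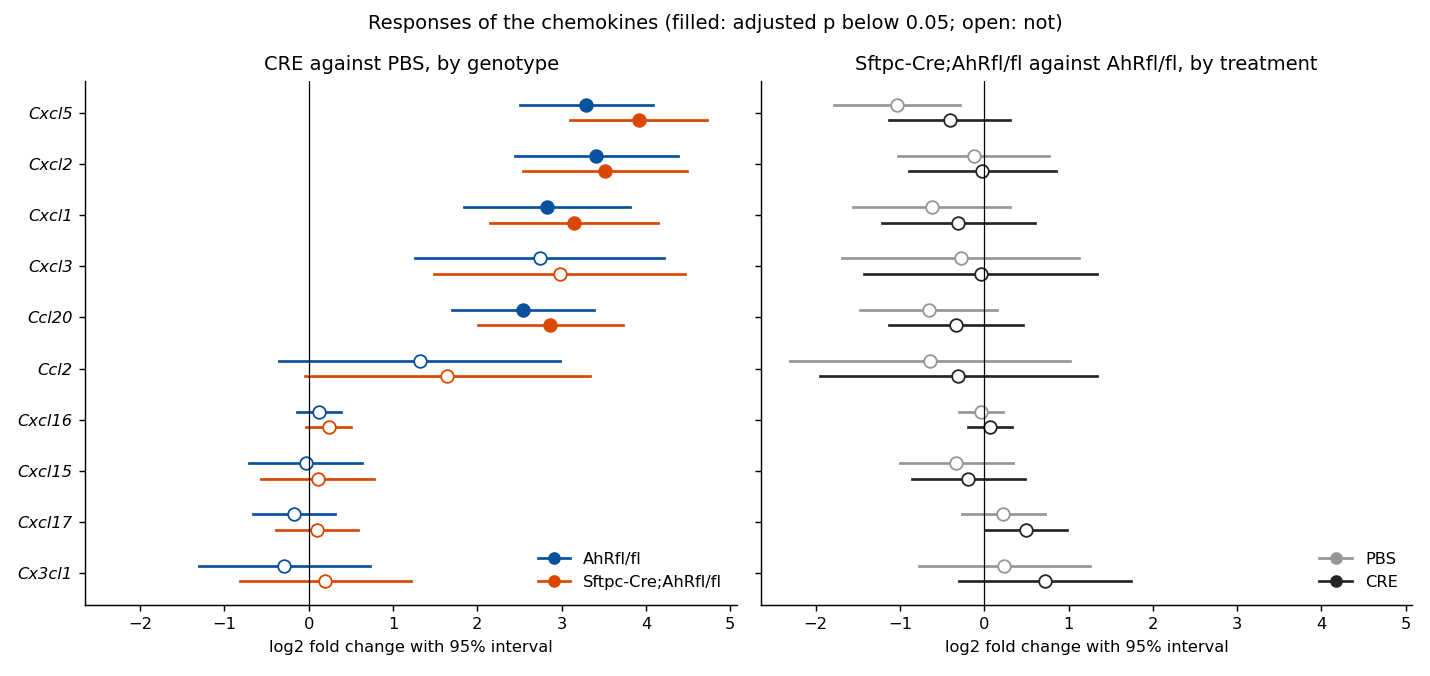
Log2 fold changes with 95% intervals from edgeR's quasi-likelihood fit, for CRE against PBS in each genotype (left) and for Sftpc-Cre;AhRfl/fl against AhRfl/fl cells with each treatment (right); filled points have an adjusted p below 0.05. On the left Cxcl5, Cxcl2, Cxcl1 and Ccl20 are filled in both genotypes, and on the right no point is filled.

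Whether AhR in AT2 cells sets the level of these chemokines was asked by comparing Sftpc-Cre;AhRfl/fl with AhRfl/fl cells under each treatment. No member was called by edgeR's quasi-likelihood test with PBS (0.0485% of all genes were called higher and 0.102% lower) or with CRE (0.0582% and 0.112%). An unadjusted p below 0.05 by edgeR was found for 1 of the 10 members with each treatment, beside 1725 of 20612 genes with PBS and 1227 with CRE. DESeq2 called 0 with either, and no other fit tried called one after adjustment. The median log2 difference of the 10 genes was -0.31 with PBS and -0.12 with CRE, beside -0.0010 and -0.0034 over all genes. With PBS this member was Cxcl5, at 6.80 ± 2.34 CPM (SD, n = 3) in AhRfl/fl and 3.32 ± 1.36 CPM in Sftpc-Cre;AhRfl/fl cells. The highest Sftpc-Cre;AhRfl/fl library (4.90 CPM) was above the lowest AhRfl/fl library (4.13 CPM), so the groups overlapped. The log2 difference was -1.03 (SE 0.34, 95% interval -1.78 to -0.29, edgeR adjusted p = 0.447), and Cxcl5 was the 1 member that passed the rule of the study downward with PBS, beside 1.76% of all genes (2.34% upward), while none passed with CRE (1.72% upward and 1.7% downward). Its difference with CRE was -0.41 (95% interval -1.13 to 0.31).

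With CRE this member was Cxcl17, at 21.3 ± 1.5 CPM in AhRfl/fl and 30.0 ± 8.16 CPM in Sftpc-Cre;AhRfl/fl cells. It was also the 1 member whose libraries did not overlap between genotypes with CRE, beside 5.56% of all genes higher and 5.43% lower in this way. None was separated with PBS (6.6% and 7.38%). The log2 difference was 0.50 (SE 0.22, 95% interval 0.01 to 0.99, edgeR adjusted p = 0.831), and the 39.2 CPM of replicate 1 of Sftpc-Cre;AhRfl/fl cells stood above the other two (23.8 and 26.9 CPM), while AhRfl/fl libraries reached 23.0 CPM. Without replicate 1 of all groups, an alternative chosen after seeing the data, the difference was 0.23 with CRE and -0.14 with PBS. For the inducible genes the intervals were wide: with CRE the log2 difference was -0.31 for Cxcl1 (95% interval -1.22 to 0.61), -0.03 for Cxcl2 (-0.90 to 0.85), -0.04 for Cxcl3 (-1.42 to 1.33), -0.31 for Ccl2 (-1.95 to 1.34) and -0.34 for Ccl20 (-1.13 to 0.46). That of Cxcl16 was narrow, 0.07 (-0.19 to 0.33).

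Whether the response to CRE differs between the genotypes was tested as the difference of both responses. No member was called (0.0% of all genes by edgeR's quasi-likelihood test, in both directions), none had an unadjusted p below 0.05 by edgeR, DESeq2 or limma-trend, and none was called with pairing. The rule of the study passed none either, beside 0.961% of all genes higher and 1.34% lower. Over all genes 763 had an unadjusted p below 0.05 by edgeR, and DESeq2 called 23. The median over the 10 genes was 0.29, beside 0.0052 over all genes. The response of Cxcl5 differed by 0.62 on the log2 scale (SE 0.47, 95% interval -0.41 to 1.65), that of Cxcl1 by 0.32 (-0.98 to 1.62), that of Cxcl2 by 0.10 (-1.15 to 1.35), that of Cxcl3 by 0.24 (-1.73 to 2.20) and that of Ccl20 by 0.32 (-0.81 to 1.45), each given as Sftpc-Cre;AhRfl/fl minus AhRfl/fl. With pairing the difference was 0.64 (SE 0.41) for Cxcl5, 0.15 (SE 0.44) for Cxcl1, 0.01 (SE 0.27) for Cxcl2, 0.06 (SE 0.26) for Cxcl3 and 0.22 (SE 0.32) for Ccl20.

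Several members varied between libraries along with markers of cell types. The 10 leukocyte markers summed to 543, 150 and 78.5 CPM in AhRfl/fl cells with PBS, 458, 126 and 65.2 with CRE, 409, 127 and 193 in Sftpc-Cre;AhRfl/fl cells with PBS and 372, 117 and 179 with CRE. No marker on the list was at or under 3 counts in all libraries. Cxcl3 in all groups, and Cxcl1, Cxcl5 and Ccl2 in 3 of 4 each, were also highest in replicate 1. The same held for Cxcl2 in both AhRfl/fl groups and for Ccl20 in both Sftpc-Cre;AhRfl/fl groups. For Cxcl5 and Ccl20 replicate 1 was the lowest CRE library in AhRfl/fl and the highest in Sftpc-Cre;AhRfl/fl cells. With the leukocyte marker sum as a covariate, an alternative chosen after seeing the data, Cxcl3 rose in both genotypes (edgeR adjusted p = 0.000623 and 0.00041) by 3.05 and 3.06 on the log2 scale. Without replicate 1 of all groups, also chosen after seeing the data, Cxcl3 rose by 3.16 and 2.87 (edgeR adjusted p = 0.0122 and 0.0195), Cxcl1, Cxcl2 and Cxcl5 stayed called in both genotypes, and Ccl20, at 2.58 and 2.81, did not (edgeR adjusted p = 0.158 and 0.132). The 13 neutrophil markers, led by S100a8 and S100a9, summed to 23.0 to 82.0 CPM in AhRfl/fl and 10.3 to 35.7 CPM in Sftpc-Cre;AhRfl/fl cells. In the unpaired fit edgeR called 0 of them in any comparison (2 at an unadjusted p below 0.05 between genotypes with PBS and 1 with CRE). All 13 had a log2 difference below 0 in Sftpc-Cre;AhRfl/fl against AhRfl/fl cells with both treatments, with medians of -1.18 and -1.36. The neutrophil marker sum was higher with CRE than with PBS in 5 of 6 same-numbered pairs: it went from 75.0, 76.6 and 23.0 to 62.9, 82.0 and 44.5 CPM in AhRfl/fl and from 23.0, 30.7 and 10.3 to 32.2, 35.7 and 12.8 CPM in Sftpc-Cre;AhRfl/fl cells. With pairing Mmp8 and Ltf, proteins of neutrophil granules, rose on average by 0.63 (SE 0.09, edgeR adjusted p = 0.00904) and 0.62 (SE 0.12, edgeR adjusted p = 0.0314) on the log2 scale. They were the 2 of the 13 called in that fit, beside 1358 of 20612 genes. Others fell without being called, among them Csf3r (-1.54) and Cxcr2 (-1.21). Without pairing the averaged log2 change was above 0 for 6 of the 13 and below 0 for 7, with a median of -0.03. The leukocyte marker sum was no higher with CRE than with PBS in any of these pairs. The part of neutrophils in the chemokine values was not tested.

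Cxcl15, which is itself on the AT2 marker list, varied with the AT2 marker sum in Sftpc-Cre;AhRfl/fl cells, where that sum was 7529, 10447 and 13982 CPM with PBS and 7757, 10610 and 14447 CPM with CRE. Both were lowest in replicate 1 and highest in replicate 3 there. In AhRfl/fl cells the sum was 13153, 14038 and 12394 CPM with PBS and 11821, 12173 and 10981 CPM with CRE, highest in replicate 2, while Cxcl15 was highest in replicate 1 with both treatments. Cxcl17 was highest in replicate 1 of Sftpc-Cre;AhRfl/fl cells, where the club cell marker sum was also the highest of its group (8317 CPM with PBS and 6986 with CRE). In AhRfl/fl cells the club cell sum was highest in replicate 3 with both treatments (7835 and 6391 CPM). Cxcl17 in these cells was highest in replicate 2 with PBS (27.1 CPM) and in replicate 3 with CRE (23.0 CPM). The part of AT2 and club cells in the levels of Cxcl15 and Cxcl17 was not tested.

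**Figure D4:**
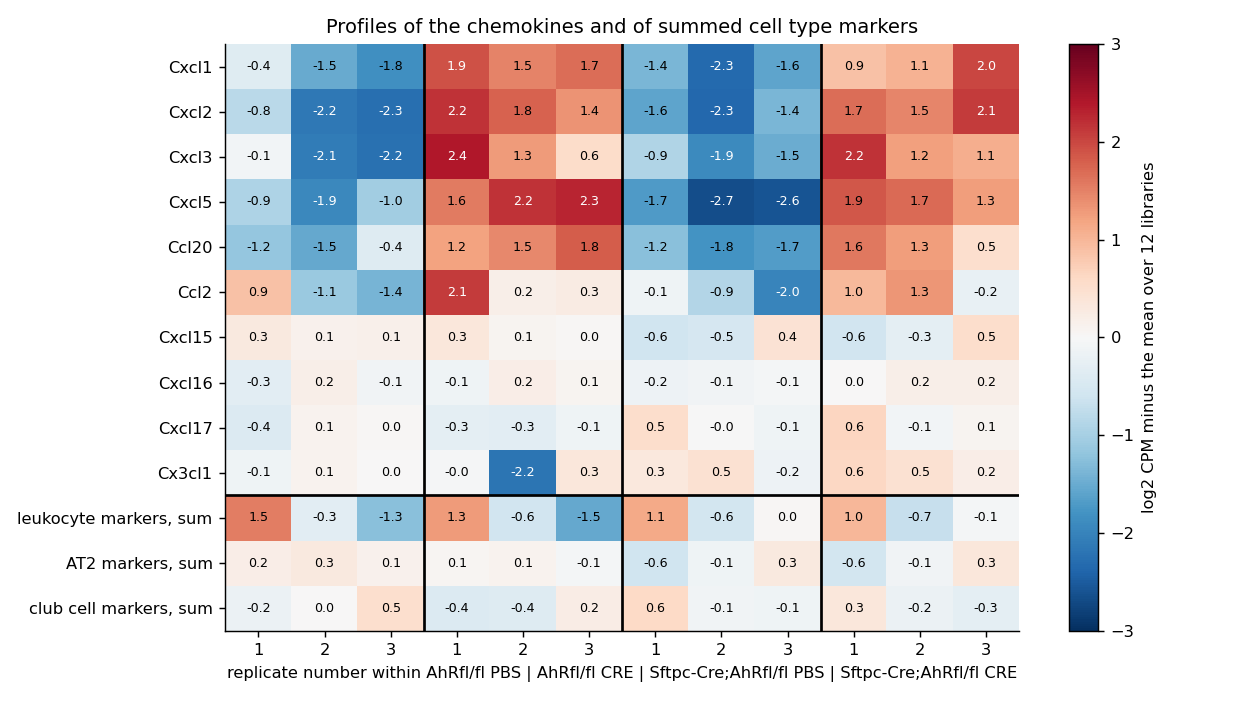
Log2 CPM of each chemokine and of 3 marker sums in each library, minus the mean of its row over the 12 libraries; red is above and blue below that mean, and black lines separate the 4 groups. The rows of Cxcl1, Cxcl2, Cxcl3, Cxcl5 and Ccl20 turn from blue to red with CRE in both genotypes, that of the leukocyte markers is highest in replicate 1 of each group, and Cx3cl1 is at -2.2 in replicate 2 of AhRfl/fl cells with CRE.

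The genes with the profile nearest to each called chemokine were found from the root mean square difference of centred log2 CPM over the 12 libraries. Nearest to Cxcl1 were Cxcl2 (0.40), Mab21l3 (0.41) and Duox2 (0.45), where the SD of Cxcl1 itself was 1.59. Nearest to Cxcl2 were Cxcl1 (0.40), Cxcl3 (0.54) and Mab21l3 (0.61). For Cxcl5 they were Vnn3 (0.55), Ccl20 (0.58) and Mab21l3 (0.62), and for Ccl20 they were Vnn3 (0.44), Zc3h12a (0.56) and Cxcl5 (0.58). Cxcl1 and Cxcl2 were thus nearest to each other, and Cxcl5 and Ccl20 were each among the 3 nearest of the other. These neighbours were picked for profiles like those of chemokines called for CRE, over the same libraries. A rise with CRE therefore follows from the choice, and their values are no separate test. Of the other neighbours Vnn3, a pantetheinase, rose by 2.77 and 2.97 on the log2 scale (edgeR adjusted p = 0.000941 and 0.000651). Duox2, at 3.30 and 2.86 (edgeR adjusted p = 0.119 and 0.204), and Mab21l3, at 2.49 and 3.11 (edgeR adjusted p = 0.189 and 0.0995), did not pass.

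The rest of the chemokine family gave fewer calls. Of 27 other chemokine ligands 18 were tested, and edgeR's quasi-likelihood test called 0 in either genotype, with 1 at an unadjusted p below 0.05 in each, while DESeq2 called 0 in AhRfl/fl and 1 (Cxcl10) in Sftpc-Cre;AhRfl/fl cells. Their median log2 change was 0.39 and 0.22. With pairing within genotype 5 of the 18 were called in each genotype, beside 748 of 20612 genes in AhRfl/fl and 439 in Sftpc-Cre;AhRfl/fl cells. The same 5 were called in both: Ccl3, Ccl7, Ccl22 and Cxcl10 higher and Ccl6 lower. These were named after their values were seen. Ccl3, a chemokine for monocytes and neutrophils, held 3.08, 0.520 and 0.103 CPM with PBS and 12.2, 2.20 and 0.698 CPM with CRE in AhRfl/fl cells. It rose by 2.19 (SE 0.21, paired edgeR adjusted p = 0.00435) and 2.29 (SE 0.20, paired edgeR adjusted p = 0.00387) on the log2 scale, and its levels, like the leukocyte marker sum, were highest in replicate 1 of each group. Ccl22, a chemokine of dendritic cells and macrophages that attracts CCR4-bearing T cells, was 1 of the 3 highest of the list with Ccl6 and Ccl5, and rose by 1.91 and 1.61 with pairing (edgeR adjusted p = 0.0120 and 0.0189), from 26.9, 5.42 and 0.541 CPM to 69.5, 19.5 and 3.85 CPM in AhRfl/fl cells. Ppbp and Pf4, which lie between Cxcl5 and Cxcl3 on chromosome 5, were not called.

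Of 23 chemokine receptors 22 were tested, and 0 were called in either genotype by edgeR or DESeq2, with 0 at an unadjusted p below 0.05 by either. With pairing 2 of the 22 were called on average, beside 1358 of 20612 genes. These were Ccr7 at 0.34 (SE 0.07, edgeR adjusted p = 0.0425) and Cxcr4 at -0.32 (SE 0.06, edgeR adjusted p = 0.0243) on the log2 scale. The receptor of the CXCR2 ligands, Cxcr2, held 0 to 1.43 CPM over the 12 libraries. Cxcr4, Cxcr6 and Ccr7 were the 3 highest, of which Ccr7, a receptor of migrating dendritic cells, held 2.5 to 108 CPM and was highest in replicate 1 of each group. Of 10 genes that release chemokines from membranes or control their mRNA, Zc3h12a, which encodes the ribonuclease Regnase-1 that degrades inflammatory mRNAs, was the 1 called in either genotype by edgeR, by DESeq2 and with pairing. It rose by 2.36 (SE 0.25, edgeR adjusted p = 0.00382) in AhRfl/fl and 1.97 (SE 0.25, edgeR adjusted p = 0.00826) in Sftpc-Cre;AhRfl/fl cells, from 9.5, 6.88 and 6.22 CPM to 31.7, 44.2 and 40.3 CPM in the first. On average DESeq2 and the paired fit also called Adam17, a protease that sheds membrane proteins, at 0.21 (SE 0.04, edgeR adjusted p = 0.0344) with pairing. Adam10, the main protease that sheds Cxcl16 and Cx3cl1, gave -0.18 and -0.32 on the log2 scale (edgeR adjusted p = 0.931 and 0.985).

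Of 31 genes of NF-kappaB and IL-17 signalling, all tested, 2 were called higher in AhRfl/fl cells, beside 0.218% of all genes. In Sftpc-Cre;AhRfl/fl cells 3 were called higher, beside 0.228%, and none was lower in either genotype (0.0146% and 0.034%). The feedback inhibitor Nfkbia rose by 0.93 (SE 0.08, edgeR adjusted p = 0.00108) and 0.99 (SE 0.08, edgeR adjusted p = 0.000838) on the log2 scale, and Nfkbiz, which encodes a nuclear cofactor of NF-kappaB at chemokine genes, by 1.71 (SE 0.19, edgeR adjusted p = 0.00426) and 1.35 (SE 0.19, edgeR adjusted p = 0.0148). The one added in Sftpc-Cre;AhRfl/fl cells was Lcn2, an antimicrobial protein, at 1.75 (SE 0.27, edgeR adjusted p = 0.0265). Averaged over genotypes 10 of the 31 were called, all higher, beside 0.864% of all genes. Those added were Ikbkg, Nfkb2, Bcl3, Birc3, Csf2, Csf3 and Saa3. The neutrophil growth factor Csf3 rose by 1.41 on average (SE 0.23, edgeR adjusted p = 0.0145). The median log2 change of the list was 0.53 in AhRfl/fl and 0.42 in Sftpc-Cre;AhRfl/fl cells, while Rela and Icam1, 2 of its 3 most abundant members, gave 0.06 and 0.07 in AhRfl/fl cells and did not pass. No gene of the list was called by edgeR between genotypes with PBS or CRE, where 1 gene had an unadjusted p below 0.05 with each treatment, while DESeq2 called 1 (Nfkbie) with PBS.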

How the data were processed

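Messenger RNA of 12 AT2 cell libraries was sequenced. The authors made stranded mRNA libraries, aligned reads with STAR 2.7.2b to GRCm38 and took expression as gene counts with Salmon. The deposited counts carry no normalization. They are whole, although Salmon gives fractions, and the rounding is not described. The deposited FPKM, which the methods of the paper do not describe, served for levels between genes. All 55450 gene IDs were found in GENCODE M21, which gave symbols, positions and exons. The methods name the RefSeq database for quantification, with no release, so the annotation behind these IDs is not settled. The 12 single-library tables held the same values as the combined one.

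Each library was put in its group by its label, and all 12 were used. After filterByExpr (minimum count 10) 20612 genes were left, which were scaled by TMM (edgeR 4.0.16, R 4.3.3). All 6 comparisons were contrasts in 1 fit of 4 group means over 12 libraries, tested by quasi-likelihood in edgeR, and p was adjusted over all genes by Benjamini-Hochberg, with a threshold of 0.05. The SE is the log2 fold change over the root of F, and 95% intervals use its degrees of freedom. The study's rule was applied with limma-trend 3.58.1 (prior count 2). Intervals cover the spread between these libraries, and 3 counts are worth 0.0371 to 0.0436 CPM. Fits were checked on simulated data. Figures were drawn with Python 3.11.15 and matplotlib 3.10.9, and profiles used log2(CPM + 0.1).

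Pairing by replicate number was checked by correlating deviations from group means over 14543 genes. CRE and PBS libraries of the same number gave 0.729, 0.418 and 0.651 in AhRfl/fl and 0.589, 0.542 and 0.325 in Sftpc-Cre;AhRfl/fl cells, so they were paired within genotype.

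The members, gene lists, tests and alternatives were chosen with earlier results of these data known. Genes named are the 10 members, of each list the genes called and the 3 with the highest mean FPKM, the 3 nearest profiles of each called chemokine, the genotype checks and the genes overlapping a member. Of the marker lists, averaged over genotypes with CRE, edgeR without pairing called Etv5 of 12 AT2 markers, Ager, Clic5 and Rtkn2 of 10 AT1 markers and Car4 of 14 alveolar macrophage markers lower, and 0 of 7 club cell, 13 neutrophil, 10 leukocyte, 8 endothelial, 8 fibroblast and 4 mesothelial markers. With pairing it called 6 AT2, 7 AT1, 9 alveolar macrophage, 2 club cell, 2 neutrophil, 2 leukocyte, 0 endothelial, 3 fibroblast and 2 mesothelial markers. That fit called 1358 of 20612 genes. Of these markers Sftpd, Lamp3, Adgre1, Aldh1a1, Mmp8 and Ltf were higher with CRE, and the rest were lower.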

Additional observations from a re-analysis of the deposited data

How the results depend on the processing

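With other tools, scalings, filters, blocks or groups in the fit, 496 log2 changes of the 10 genes kept their direction and their side of the threshold, 13 newly passed the threshold, 5 no longer passed and 4 turned. With 1 library left out at a time 408 kept both, 22 no longer passed and 50 turned. With edgeR on only the 2 groups compared, 1 of the 10 genes was called in AhRfl/fl cells (Cxcl5, where Cxcl1, Cxcl2 and Ccl20 had adjusted p = 0.0998, 0.0914 and 0.0937) and 2 in Sftpc-Cre;AhRfl/fl cells (where Cxcl1 and Ccl20 had 0.0809 and 0.0761). Leaving out 1 library at a time, 1 to 3 of the 10 genes were called in AhRfl/fl cells, 1 to 4 in Sftpc-Cre;AhRfl/fl cells and 4 to 5 on average, and 0 between genotypes or in the difference of responses. The fewest were left without PBS replicate 2 of either genotype (1 in each), and 2 were left without AhRfl/fl PBS replicate 3, CRE replicate 2 or CRE replicate 3 and without Sftpc-Cre;AhRfl/fl PBS replicate 3. The cause was not tested.

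Directions turned only in values that were not called. Sftpc-Cre;AhRfl/fl minus AhRfl/fl with PBS turned for Cxcl3 with limma-trend (0.034) and with CRE (0.08). With the replicate number as an additive block over both genotypes Cxcl3 gave 0.014 with PBS and 0.069 with CRE, a block that added calls for Cxcl3 in both genotypes and for Ccl2 on average. Same-numbered libraries of different genotypes correlated by 0.420, 0.0416 and 0.106 with PBS and 0.413, -0.0286 and 0.0867 with CRE. The values of replicate 1 lay within the range found within genotype, where replicate 2 of AhRfl/fl cells gave 0.418. Those of the other replicates lay below that range. The replicate 1 libraries also held the most leukocyte marker RNA of their groups, and what they share across genotypes was not tested. The block within genotype changed no call other than those of Cxcl3, Ccl2 and Cxcl16.

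Alternatives chosen after seeing the data turned 11 values. Without replicate 1 of all groups the genotype difference with PBS was 0.45 for Cxcl2, 0.49 for Cxcl3 and -0.14 for Cxcl17. With CRE it was 0.014 for Cxcl1, 0.25 for Cxcl2, 0.20 for Cxcl3, 0.11 for Cxcl15 and 0.52 for Ccl2, and the difference of responses was -0.20 for Cxcl2 and -0.29 for Cxcl3. With the leukocyte covariate the latter was -0.014 for Cxcl2.

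Leaving out 1 library at a time, the genotype difference with CRE ran from -0.62 to 0.61 for Ccl2, -0.59 to 0.016 for Cxcl15, -0.016 to 0.15 for Cxcl16, -0.22 to 0.20 for Cxcl2 and -0.46 to 0.62 for Cxcl3. The genotype difference with PBS ran from -1.17 to 0.46 for Ccl2, -0.15 to 0.094 for Cxcl16, -0.38 to 0.51 for Cxcl2 and -0.63 to 0.80 for Cxcl3. The difference of responses ran from -0.77 to 1.25 for Ccl2, -0.099 to 0.57 for Ccl20, -0.27 to 0.59 for Cxcl1, -0.25 to 0.54 for Cxcl15, -0.025 to 0.22 for Cxcl16, -0.54 to 0.35 for Cxcl2 and -0.84 to 0.90 for Cxcl3. The averaged response to CRE ran from -0.28 to 0.18 for Cx3cl1, -0.16 to 0.23 for Cxcl15 and -0.16 to 0.071 for Cxcl17. The response to CRE in AhRfl/fl cells ran from -0.75 to 0.16 for Cx3cl1 and -0.14 to 0.024 for Cxcl15. The response to CRE in Sftpc-Cre;AhRfl/fl cells ran from -0.29 to 0.51 for Cxcl15 and -0.15 to 0.32 for Cxcl17.

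Over all genes edgeR called 48, 54 and 226 genes for CRE in AhRfl/fl cells, in Sftpc-Cre;AhRfl/fl cells and on average. DESeq2 called 409, 254 and 740, pairing within genotype 748, 439 and 1358, the additive block 137, 112 and 529 and the leukocyte covariate 153, 127 and 513. With only 2 groups in the fit the counts were 38 and 13, and leaving out 1 library gave 19 to 47, 23 to 62 and 125 to 219. Between genotypes the counts were 31 with PBS and 35 with CRE by edgeR, 243 and 174 by DESeq2, 71 and 55 with the additive block, 15 and 25 with only 2 groups, 15 to 26 and 21 to 30 with 1 library left out, and 51 and 45 with the covariate. Without replicate 1 of all groups they were 24 and 19. For the difference of responses edgeR called 0, DESeq2 23, fits without 1 library 0 to 2 and those without replicate 1 of all groups 4. Of the 31 NF-kappaB and IL-17 genes DESeq2 called 10, 11 and 15 and pairing 14, 14 and 17, where edgeR called 2, 3 and 10. Ranks by CPM per kilobase were those by FPKM in all 40 cases.

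With 3 libraries a group, intervals of the CXCR2 ligands were wide, and Ccl20 rested on 61 to 168 counts a library with PBS.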
